A study of Mus musculus with 69 samples.

Results

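Effector memory CD8+ T cells (Tem) were compared with central memory CD8+ T cells (Tcm) of wild-type mice, both kept in culture with interleukin-15 (IL-15), across every gene of the RNA-seq table. The members were chosen by their labels, as the 2 Tem and the 2 Tcm libraries of wild-type genotype with IL-15, and are 4 of the 69 samples of the series. Of 24309 gene symbols in the table, 10072 passed the filter on low counts and were tested. The study deleted alleles of the paralogs Stat5a and Stat5b in mice, sorted naive, central memory and effector memory T cells out of lymph nodes and spleens that were pooled, and sequenced poly(A)+ RNA from cells with or without IL-7 or IL-15. Wild-type (WT) mice here are Stat5a+/+ Stat5b+/+. Both memory states were sorted as CD8+ and CD44 high, with CD62L high for Tcm and CD62L low for Tem, and the labels give 12 to 16 h of culture with IL-15. Each library is a sorted pool from lymph nodes and spleen, so neither state stands for a single tissue, and age is not given in the labels. The comparison was also made in mice left with a single Stat5 allele. In the genotype called AAB that allele is of Stat5b, and in BBA it is of Stat5a. Each of these genotypes was fitted on its own 8 libraries. For WT, the same 2 states without cytokine (2 libraries each) served as background. The labels describe those cells as cultured and the methods as taken directly ex vivo, so an effect of culture and an effect of IL-15 cannot be told apart in any comparison with them.

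IL-15 is displayed to T cells by other cells and signals through CD122 (Il2rb) and the common gamma chain (Il2rg) to JAK1, JAK3 and STAT5, and memory CD8+ T cells depend on it for their survival and slow turnover. Central memory cells carry CCR7 and circulate through lymph nodes, whereas effector memory cells lack it, carry receptors for inflamed and barrier tissue and make cytokines and cytotoxic granules quickly. The question the libraries address is how far the 2 states differ when both have had the same cytokine.

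The 4 IL-15 libraries held 11723977 to 17683997 counts on genes. Tem replicate 2 stood apart from the other 7 WT memory libraries: 22638 symbols had a count in it, against 16657 in Tem replicate 1 and 16805 to 19556 elsewhere. Of 1542 genes of families that T cells do not use (olfactory, vomeronasal and taste receptors, keratin-associated proteins), 1317 had a count in Tem replicate 2 and 107 to 510 in the other 7 libraries. Genes that were not tested held 2.22% of its counts, against 0.516% to 0.713% elsewhere. For the gene lists, either the number of members called is therefore also given without this library, or the libraries that ended a call are named. For genes described singly whose call ended on leaving out 1 of the 4 IL-15 libraries, the highest adjusted p of the 4 fits is mostly given as well. Throughout, a call means a change of more than 1.5-fold with an adjusted p under 0.05, where the p-values are those of the quasi-likelihood test in edgeR, adjusted over all genes tested by the Benjamini-Hochberg method, and fold changes are log2 of Tem over Tcm with their standard error (SE). Levels are CPM, counts scaled to a common library size, listed as replicate 1 and replicate 2. The p-values measure the spread between these libraries, which the methods call biological replicates. In sorted bulk cells, fewer cells of a type and less RNA per cell cannot be told apart.

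Both states were sorted as CD44 high. Cd44 lay at 80.7 and 74.2 CPM in Tcm and 148 and 129 CPM in Tem (0.84, SE 0.19, edgeR adjusted p 0.0416). This call was lost without any 1 library (adjusted p up to 0.206). The CD8 chains did not differ beyond their spread, with Cd8a at 1681 and 1476 CPM in Tcm and 1671 and 1306 CPM in Tem (-0.0851, SE 0.16) and Cd8b1 at 1052 and 943 and 1024 and 803 CPM (-0.13, SE 0.18). The constant chains of the T cell receptor were not analysed here.

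With IL-15, 576 genes differed between the states (5.72% of 10072 tested), 327 higher in Tem (3.25%) and 249 lower (2.47%). The counts of called members in each list below stand against these shares. The 2 directions differed in size. Of the genes higher in Tem, 213 were over 2-fold and 97 over 4-fold, with a median of 2.52-fold, whereas of those lower in Tem 54 were over 2-fold and 3 over 4-fold, with a median of 1.74-fold. Genes higher in Tem were also sparser, at a median of 20.3 CPM over the 4 libraries against 52.4 CPM for genes lower in Tem. The libraries of the 2 states did not overlap for any called gene, but this also held for 5697 of all genes tested (56.6%). Without Tem replicate 2, 227 genes were called (171 higher, 56 lower), of which 216 were among the 576. Without Tem replicate 1 there were 1132 (860 higher, 272 lower), without Tcm replicate 1 103 and without Tcm replicate 2 164. Of the 576 calls, 97 held in each of these 4 fits, and more were lost without Tcm replicate 1 (103 kept) or Tcm replicate 2 (163 kept) than without Tem replicate 1 (474 kept) or Tem replicate 2 (216 kept). The sign of a called gene could hardly change when 1 library was left out, because the libraries of its 2 states did not overlap. A sign that held in these fits therefore says nothing beyond that lack of overlap. A set of 99 called genes, chosen by fold and by list, was recomputed under each setting. Their signs held in each of the 4 fits that tested them, and 29 kept their call in all 4: Alpl, B4galnt4, Ccl5, Cd101, Cdca7, Cpne7, Cx3cr1, Fam101b, Fam46c, Grwd1, Gzma, Ifng, Il7r, Itga1, Itgae, Klrg1, Lgals3, Maf, Mcm3, Mcm5, Mthfd1, Pmepa1, Prdm1, Ret, Rora, Sema6d, Tigit, Uhrf1 and Ung.

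**Figure D1:**
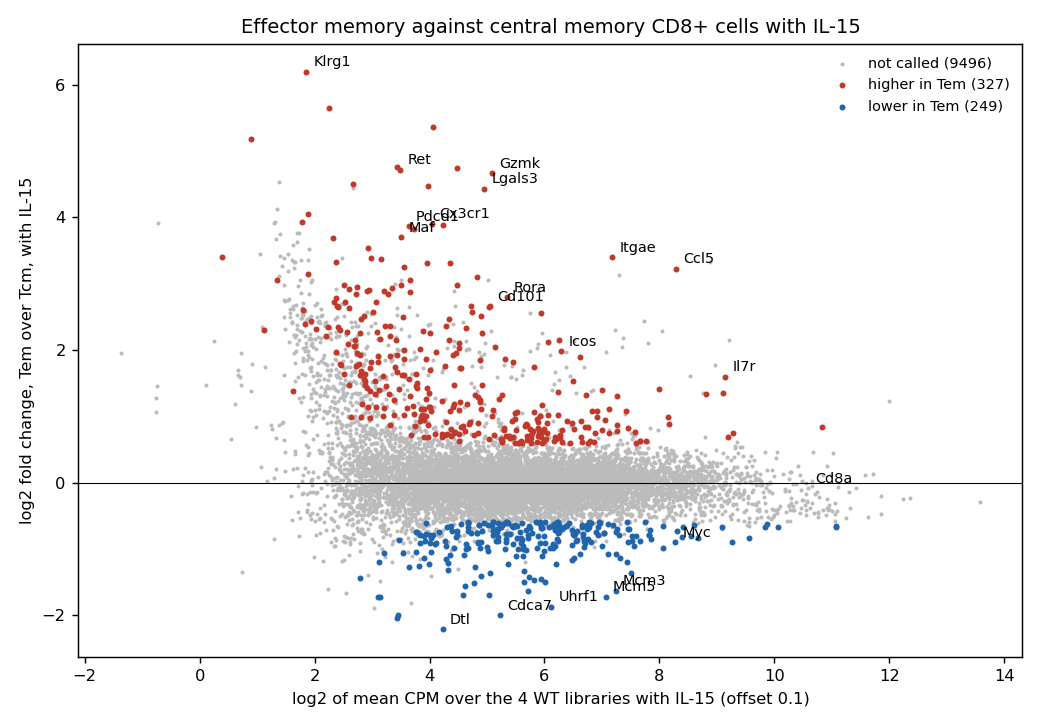
Each point is 1 of the 10072 genes tested: the x axis is log2 of the mean CPM over the 4 WT libraries with IL-15, the y axis the log2 fold change of Tem over Tcm. The 327 genes higher in Tem reach much further from 0 (median 2.52-fold) than the 249 lower in Tem (median 1.74-fold), whose deepest points include Dtl, Cdca7, Uhrf1 and Mcm5.

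Receptors for tissue homing and adhesion included genes with large differences. Of 38 tested genes of this list, 12 were higher in Tem and 2 lower, where 3.25% of all genes tested were higher and 2.47% lower (8 and 0 without Tem replicate 2, 12 and 1 without Tem replicate 1, 5 and 0 without Tcm replicate 1, 7 and 0 without Tcm replicate 2), and the list's median was 0.42 against 0.02 for all genes tested. Cx3cr1, the fractalkine receptor of circulating effector cells (chromosome 9, 119901616 to 120069879, minus strand), lay at 1.804 and 2.28 CPM in the Tcm libraries and 31.8 and 29.6 CPM in the Tem libraries, a log2 difference of 3.91 (SE 0.25, edgeR adjusted p 4.75e-04). Both Tem libraries lay far above both Tcm libraries. Integrin chains of tissue cells moved the same way. Itgae (CD103, which binds E-cadherin; chromosome 11, 73090583 to 73147446, plus strand) was at 31.4 and 18.5 CPM in Tcm and 278 and 251 CPM in Tem (3.40, SE 0.31, edgeR adjusted p 0.00149). Itga1 (CD49a, a collagen receptor; chromosome 13, 114953096 to 115101964, minus strand) went from 1.58 and 1.08 to 24.5 and 35.1 CPM (4.48, SE 0.30, edgeR adjusted p 5.75e-04). All 3 kept their call in every leave-one-out fit.

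Smaller differences of the same sign were seen for Itga2 (2.72), Itgax (2.78), Itga4 (1.34) and its partner chain Itgb1 (1.35), and for Gcnt1 (2.17), which builds selectin ligands. Each of these 5 lost its call without Tcm replicate 1, Itga2, Itgax and Itgb1 also without Tcm replicate 2, Itgax and Itgb1 also without Tem replicate 2 and Itgb1 also without Tem replicate 1. S1pr5, the sphingosine-1-phosphate receptor linked to exit from tissue, lay at 1.97 and 0.7202 CPM in Tcm and 11.7 and 16.7 CPM in Tem (3.38, SE 0.40, edgeR adjusted p 0.00398) and kept its call without any 1 library, as did Ccr10. The skin-associated chemokine receptors Ccr10 and Ccr8 were both nearly absent from Tcm. Ccr10 was at 1.63 and 1.44 against 14.9 and 17.1 CPM (3.37, SE 0.26, edgeR adjusted p 9.98e-04). Ccr8 had 3 counts in the Tcm libraries together and 86 in the Tem libraries, a ratio of 39.3 with a 95% counting interval of 13.02 to 194. Ccr8 lost its call without either Tcm library or Tem replicate 2 (adjusted p up to 0.223). On the other side, Cxcr5, which guides cells to B cell follicles, was lower in Tem (-0.60) and lost its call without any 1 of the 4 libraries. The lymph node receptor Ccr7 lay at 557 and 616 CPM in Tcm and 384 and 436 CPM in Tem, with no overlap, and missed the call (-0.52, SE 0.13, edgeR adjusted p 0.0597). S1pr1, which takes cells out of lymph nodes, was at 337 and 346 against 362 and 371 CPM (0.10, SE 0.10). Cxcr3 was at 261 and 237 against 375 and 276 CPM (0.39, SE 0.24). Cxcr6 was higher in both Tem libraries (197 and 122 CPM) than in either Tcm library (67.4 and 28.1 CPM), but its replicates differed too much for a call (1.74, SE 0.54, edgeR adjusted p 0.1002).

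Among cytotoxic genes the calls were all higher in Tem, and not every granzyme was among them. Of 23 tested genes of the list, 5 were higher in Tem and 0 lower (3 and 0 without Tem replicate 2, 3 and 0 without Tem replicate 1, 1 and 0 without Tcm replicate 1, 2 and 0 without Tcm replicate 2). Gzma (granzyme A) lay at 4.34 and 7.98 CPM in Tcm and 31.3 and 36.6 CPM in Tem (2.46, SE 0.27, edgeR adjusted p 0.00306) and kept its call without any 1 library. Gzmk (granzyme K) was at 4.28 and 0.7802 CPM in Tcm and 98.3 and 31.8 CPM in Tem. The states did not overlap, but replicates were far apart within each state, and the call (4.66, SE 1.10, edgeR adjusted p 0.0458) ended without any 1 of the 4 libraries (adjusted p up to 0.213). Stx11, a syntaxin of granule fusion (1.91), and Serpinb6a, a protease inhibitor (1.14), were also higher in Tem, calls lost without Tcm replicate 1 and, for Serpinb6a, also without Tcm replicate 2 (adjusted p up to 0.0702 and 0.0872). Perforin, which opens the target cell's membrane, did not follow: Prf1 was at 112 and 101 CPM in Tcm and 96.3 and 75.2 CPM in Tem (-0.31, SE 0.15). Gzmb (granzyme B), at 27.1 and 20.9 against 35.99 and 32.1 CPM with IL-15, was not called either (0.50, SE 0.22, edgeR adjusted p 0.204) and is described further below with the cells without cytokine.

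Secreted factors split by direction. Ccl5, a chemokine that memory CD8+ cells store ready-made as RNA, was at 68.4 and 52.3 CPM in Tcm and 646 and 485 CPM in Tem (3.23, SE 0.35, edgeR adjusted p 0.00303). Ifng (interferon gamma) lay at 1.69 and 0.6601 CPM in Tcm and 16.9 and 10.9 CPM in Tem (3.54, SE 0.43, edgeR adjusted p 0.00472), and both calls held without any 1 library. Fgl2, a suppressive fibrinogen-like protein (2.37), and the chemokine Ccl4 (1.39) were higher in Tem as well, but Fgl2 lost its call without either Tcm library and Ccl4 without either Tcm library or Tem replicate 1 (adjusted p up to 0.0778 and 0.161). Lymphotoxin alpha (Lta, -0.93) and oncostatin M (Osm, -0.999), in contrast, were lower in Tem, and lost their calls without Tem replicate 2 (adjusted p 0.177 and 0.0963) or either Tcm library. Of the 13 tested genes of this list 4 were thus higher and 2 lower (4 and 0 without Tem replicate 2, 3 and 3 without Tem replicate 1, 2 and 0 without either Tcm library).

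The killer-cell lectin-like receptors, mostly known from NK cells, were higher where they differed. Klrg1, a marker of terminal effector cells (chromosome 6, 122270596 to 122282882, minus strand), had 2 and 1 counts in the Tcm libraries and 73 and 102 counts in the Tem libraries, a ratio of 80.0 with a 95% counting interval of 26.9 to 391.9. It was called in every leave-one-out fit (adjusted p 0.00188 with all libraries). Klrb1f (2.35) and Klrk1, which encodes the activating receptor NKG2D (0.96), were the other 2 called of 14 tested members of the list, with 0 lower (2 and 0 without Tem replicate 2, 1 and 0 without either Tcm library). Klrk1 lost its call without either Tcm library or Tem replicate 2 (adjusted p up to 0.125), and Klrb1f without either Tcm library (adjusted p up to 0.0576). Even in the Tem libraries Klrg1 was rare, at 6.11 and 7.77 CPM.

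Of 25 tested transcription factors of effector and resident cells, 11 were higher and 0 lower, with a median of 0.59 (9 and 0 without Tem replicate 2, 9 without Tem replicate 1, 3 without Tcm replicate 1 and 5 without Tcm replicate 2). Rora, a nuclear receptor of innate-like and helper lymphocytes (chromosome 9, 68653786 to 69388246, plus strand), lay at 9.92 and 10.5 CPM in Tcm and 69.6 and 71.9 CPM in Tem, with replicates nearly equal (2.79, SE 0.12, edgeR adjusted p 8.84e-05). Maf, which drives interleukin-10 in several T cell types, was at 1.52 and 1.68 CPM against 22.02 and 19.8 CPM (3.70, SE 0.23, edgeR adjusted p 4.70e-04). Prdm1 (Blimp-1, the repressor that closes the central memory program) was at 2.25 and 2.1 CPM in Tcm and 12.6 and 16.3 CPM in Tem (2.73, SE 0.25, edgeR adjusted p 0.00162). These 3 held in every leave-one-out fit. Zeb2, a transcriptional repressor used by terminal effector cells, followed them at 1.92 and 2.34 against 9.29 and 14.9 CPM (2.51, SE 0.30, edgeR adjusted p 0.00455). Its call was lost without Tcm replicate 1. Id2, which blocks E proteins, doubled from 105 and 114 to 251 and 209.9 CPM (1.08, SE 0.17), a call lost without either Tcm library (adjusted p up to 0.1103). Hic1 (3.14), Ahr (2.14), Zbtb32 (2.06), Crem (1.43), Irf4 (1.23) and Gata3 (0.59) were the others, all of which lost their call without Tcm replicate 1 and all but Irf4 without Tcm replicate 2. Irf4 and Zbtb32 also lost it without Tem replicate 2, and Zbtb32, Crem and Gata3 without Tem replicate 1.

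The master regulators of effector function that memory cells share were not called. Tbx21 (T-bet) was at 48.4 and 45.8 CPM in Tcm and 76.3 and 60.4 CPM in Tem (0.54, SE 0.15, edgeR adjusted p 0.06995). Eomes, its relative that sustains CD122, was at 247 and 273 against 201 and 172 CPM (-0.48, SE 0.12, edgeR adjusted p 0.0496), which is under 1.5-fold. Where 5.72% of all genes tested were called, 1 of 20 factors of naive and stem-like cells was, the chromatin organiser Satb1. It was at 641 and 693 CPM in Tcm and 406 and 432 CPM in Tem (-0.67, SE 0.13, edgeR adjusted p 0.0269), a call that ended without any 1 library (adjusted p up to 0.1502). Tcf7, which encodes TCF-1, the factor most tied to the central memory state, was not lower in Tem. It lay at 820.3 and 953 CPM in Tcm and 1160.02 and 1283 CPM in Tem, with no overlap and a difference short of a call (0.46, SE 0.12, edgeR adjusted p 0.0597). Without cytokine its sign was the opposite (-0.26), at 1329 and 1392 CPM in Tcm and 1149 and 1127 CPM in Tem, and the difference between those differences was 0.72 (SE 0.17, edgeR adjusted p 0.219). Id3 (-0.48, SE 0.14, edgeR adjusted p 0.0767) and Klf2 (0.23, SE 0.32) were not called.

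Of 21 tested genes of inhibitory receptors and dysfunction 8 were higher and 0 lower, with a median of 0.76 (6 and 0 without Tem replicate 2, 7 and 1 without Tem replicate 1, 2 and 0 without either Tcm library). Over all genes tested, 3.25% were higher. Cd101, an inhibitory immunoglobulin-family receptor (chromosome 3, 100993529 to 101029556, minus strand), had the smallest adjusted p of the list: 9.13 and 8.94 CPM in Tcm against 57.7 and 56.3 CPM in Tem (2.66, SE 0.13, edgeR adjusted p 1.58e-04). Tigit lay at 1.69 and 1.8 against 13.6 and 12.5 CPM (2.89, SE 0.29, edgeR adjusted p 0.00226), and these 2 calls held without any 1 library. Pdcd1, which encodes PD-1, was at 2.54 and 0.6001 CPM in Tcm and 31.7 and 14.5 CPM in Tem (3.86, SE 0.93, edgeR adjusted p 0.0483). Lag3 was at 4.79 and 9.24 against 28.7 and 26.2 CPM (1.97, SE 0.45, edgeR adjusted p 0.0403). The states did not overlap for either gene, yet their calls ended without any 1 of the 4 libraries (adjusted p up to 0.218 and 0.242). Ctla4 (1.43), Cd200 (1.79) and the ectonucleotidases Entpd1 (CD39, 1.02) and Nt5e (CD73, 1.31), which turn extracellular ATP into adenosine, completed the 8, and these 4 calls were lost without either Tcm library. P2rx7, the ATP-gated channel, was higher as well (0.845 and 1.68 CPM in Tcm, 8.29 and 11.5 CPM in Tem; 2.97, SE 0.46, edgeR adjusted p 0.0105), and lost its call without Tcm replicate 1 or Tem replicate 2 (adjusted p up to 0.0986). Tox, a factor of exhausted cells, was at 13.02 and 15.2 CPM in Tcm and 20.8 and 20.7 CPM in Tem, under 1.5-fold (0.56, SE 0.13, edgeR adjusted p 0.0457).

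**Figure D2:**
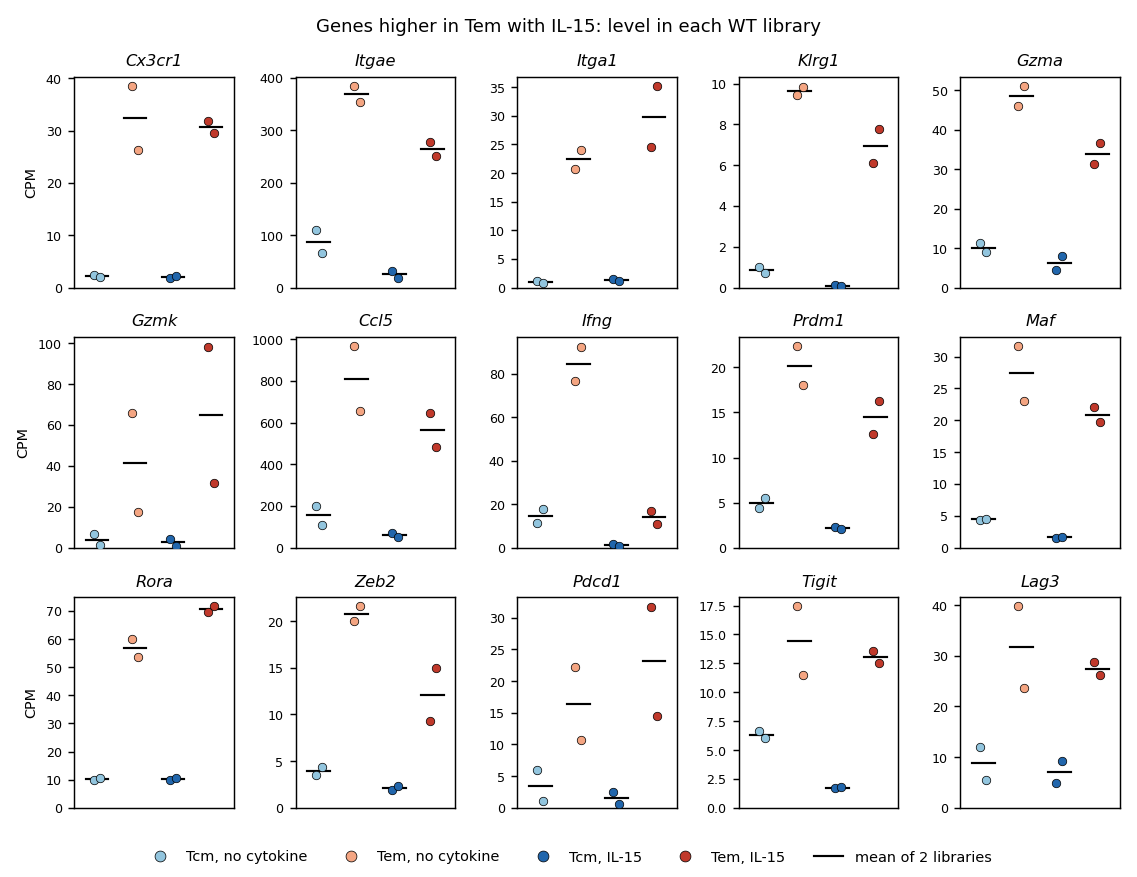
CPM (y axis) of 15 genes higher in Tem with IL-15, 1 panel a gene, for the 8 WT libraries: points are libraries and bars the mean of 2 libraries, for Tcm and Tem without cytokine and with IL-15. In every panel both Tem libraries with IL-15 lie above both Tcm libraries with IL-15, and for Cx3cr1, Itga1 and Rora the Tem levels without cytokine are of the same order (Cx3cr1 38.5 and 26.2 CPM).

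Of 35 tested genes of the common gamma chain receptors and the JAK-STAT pathway, 2 were higher in Tem and 1 lower (2 and 0 without Tem replicate 2), with a median of 0.09, where 5.72% of all genes tested were called. Il2rb lay at 1241 and 1183 CPM in Tcm and 1067 and 763 CPM in Tem (-0.41, SE 0.19, edgeR adjusted p 0.221). Il2rg was at 525 and 468 against 476 and 418 CPM (-0.15, SE 0.12) and Il15ra at 16.2 and 15.8 against 16.6 and 16.5 CPM (0.0454, SE 0.16). None of the 3 passed the test, and the sign of Il15ra changed with the filter on low counts (-0.017 with edgeR's own filter). Stat5a was at 79.6 and 88.2 against 73.1 and 72.4 CPM (-0.21, SE 0.12). Stat5b was at 170.2 and 205 against 228 and 239.8 CPM (0.32, SE 0.14), and neither was called. The feedback inhibitors that STAT5 induces were not called with IL-15. Cish was at 60.4 and 49.5 CPM in Tcm and 75.9 and 58.3 CPM in Tem (0.29, SE 0.19) and Socs2 at 16.01 and 14.2 and 17.7 and 16.99 CPM (0.20, SE 0.24). Without cytokine Cish had been higher in Tem (46.7 and 33.8 CPM against 9.58 and 9.11 CPM; 2.11, edgeR adjusted p 0.00381), and the difference between the 2 contrasts (-1.82, SE 0.28) missed the threshold (edgeR adjusted p 0.0626).

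The IL-7 receptor was among the called genes of this pathway. Il7r (chromosome 15, 9505788 to 9530176, minus strand) lay at 291 and 271 CPM in Tcm and 908 and 793 CPM in Tem with IL-15 (1.60, SE 0.12, edgeR adjusted p 7.69e-04), and at 669.6 and 697 CPM and 777 and 737 CPM without cytokine (0.15, edgeR adjusted p 0.734). The 2 Tcm libraries with IL-15 were thus the low ones of the 8. Il9r was at 1.296 and 1.02 against 6.03 and 6.55 CPM (2.43, SE 0.32), and lost its call without either Tcm library (adjusted p up to 0.0602). The kinase Pim2 was lower in Tem (-0.64, SE 0.12), a call lost without either Tcm library or Tem replicate 2 (adjusted p up to 0.122). Among 21 survival genes 2 were higher and 1 lower (0 by edgeR without Tem replicate 2; 10 at an unadjusted p under 0.05 with all libraries). Bcl2, the survival factor of memory cells, was at 1065 and 957 CPM in Tcm and 906 and 735 CPM in Tem (-0.30, SE 0.14, edgeR adjusted p 0.236). Of 21 genes of the TNF family and costimulation, Icos (33.4 and 29.9 CPM in Tcm, 139.5 and 110.4 CPM in Tem; 1.98, SE 0.29, edgeR adjusted p 0.00907), Cd40lg, Tnfrsf1b and Tnfsf14 were higher and 0 lower (2 and 0 without Tem replicate 2, 5 and 0 without Tem replicate 1, 0 without either Tcm library, where each of these 4 calls was lost). Cd27 was at 238 and 238 against 229 and 196 CPM (-0.16, SE 0.13).

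Of the 327 higher calls, 64 were on a gene list and 263 on none, and some of the latter had large folds. Lgals3, which encodes the sugar-binding protein galectin-3 (chromosome 14, 47367751 to 47386160, plus strand), had the smallest adjusted p of the named genes, at 2.71 and 2.76 CPM in Tcm and 53.2 and 64.8 CPM in Tem (4.43, SE 0.15, edgeR adjusted p 4.63e-05). Cpne7, a copine that binds membranes in response to calcium, went from 1.13 and 0.4201 to 37.1 and 27.5 CPM (5.36, SE 0.46, edgeR adjusted p 0.001203). Ret, the receptor tyrosine kinase of the glial-derived growth factors, was at 0.958 and 0.6601 against 21.8 and 21.2 CPM (4.71, SE 0.39, edgeR adjusted p 0.001203). These genes were close to silent in Tcm, and so were the glycosyltransferase B4galnt4 (1.97 and 1.2 against 42.4 and 43.04 CPM; 4.74, SE 0.40, edgeR adjusted p 0.001203) and the semaphorin Sema6d (0.845 and 0.6601 against 15.6 and 25.7 CPM; 4.76, SE 0.44, edgeR adjusted p 0.0016). All 5 kept their call without any 1 library. Ppp2r2c, a regulatory subunit of phosphatase 2A, had 6 counts in the Tcm libraries and 226 in the Tem libraries, a ratio of 51.7 with a 95% counting interval of 23.4 to 142. It lost its call without either Tcm library (adjusted p up to 0.124) and was not tested without Tem replicate 1, where it fell under the filter. Ifitm1 (4.50), Stk32c (4.05) and Arnt2 (3.93) also had large folds. Their calls ended without either Tcm library for Ifitm1, without Tcm replicate 2 for Stk32c and without either Tcm library or Tem replicate 2 for Arnt2.

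Of the 249 genes lower in Tem, that is higher in Tcm, with IL-15, 86 were on a gene list and 163 on none. Of 45 tested genes of DNA replication, 25 were lower in Tem and 1 higher, with a median of -0.996 (against 0.02 for all genes), where 2.47% of all genes tested were lower. The count was 15 and 0 without Tem replicate 2, 23 and 1 without Tem replicate 1, 10 and 0 without Tcm replicate 1 and 12 and 0 without Tcm replicate 2, and the median without Tem replicate 2 was -1.03. All 6 subunits of the MCM2-7 helicase, which unwinds DNA at the fork, were among them. Mcm5 (chromosome 8, 75109569 to 75128439, plus strand) lay at 221 and 190.1 CPM in Tcm and 59.7 and 64.8 CPM in Tem (-1.72, SE 0.11, edgeR adjusted p 4.75e-04). Mcm3 was at 243 and 215 against 76.01 and 71.4 CPM (-1.63, SE 0.11, edgeR adjusted p 5.75e-04). Mcm2, Mcm4, Mcm6 and Mcm7 had log2 values of -1.37, -1.13, -1.20 and -1.08, and all 6 subunits kept their call without any 1 library. The proteins that load the helicase followed, Cdc6 (18.7 and 15.96 CPM in Tcm, 2.34 and 6.32 CPM in Tem; -1.99, SE 0.42, edgeR adjusted p 0.0318), Orc1 (-1.73, SE 0.38) and Cdt1 (-0.73, a call lost without any 1 library). Cdc6 lost its call without either Tcm library (adjusted p up to 0.199) and Orc1 without either Tcm library or Tem replicate 2 (adjusted p up to 0.273).

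At the fork itself, the polymerase subunits Pold1 (-1.07), Pold2 (-0.61), Pole (-1.51) and Pole2 (-0.88), the primases Prim1 (-0.76) and Prim2 (-0.79), the clamp loaders Rfc4 (-1.28) and Rfc5 (-0.73), the flap nuclease Fen1 (-1.22) and the ligase Lig1 (-1.50) were lower in Tem. Of these 10, Fen1 and Lig1 held without any 1 library and Pole fell out without Tcm replicate 1. Pold2, Prim1, Rfc4 and Rfc5 lost their calls without either Tcm library or Tem replicate 2, and Pold1, Pole2 and Prim2 without any 1 library. Uhrf1, which copies DNA methylation onto new strands (chromosome 17, 56303321 to 56323486, plus strand), was at 108 and 110.4 CPM in Tcm and 23.8 and 35.8 CPM in Tem (-1.87, SE 0.18, edgeR adjusted p 0.001896). Ung, which removes uracil from DNA, was at 50.4 and 49.99 against 15.8 and 15.2 CPM (-1.70, SE 0.13, edgeR adjusted p 9.98e-04). For both, the 2 Tcm libraries were more than 2-fold above either Tem library, and both calls held without any 1 library. The histone chaperones Chaf1a (-1.56) and Chaf1b (-0.996) were also lower. So was E2f1, the transcription factor that switches these genes on at the start of S phase (36.2 and 36.6 CPM in Tcm, 9.04 and 13.3 CPM in Tem; -1.70, SE 0.27, edgeR adjusted p 0.0115). Chaf1a lost its call without Tcm replicate 1 (adjusted p 0.0514), E2f1 without either Tcm library (adjusted p up to 0.08702) and Chaf1b without either Tcm library or Tem replicate 2. The 3 genes lower by more than 4-fold were outside the list. Dtl, the adaptor that has Cdt1 degraded, was at 32.7 and 28.6 CPM in Tcm and 5.02 and 8.23 CPM in Tem (-2.21, SE 0.25, edgeR adjusted p 0.00348, and 0.0522 without Tcm replicate 1). The others were the checkpoint kinase Chek1 (-2.04) and Cdca7 (65.8 and 53.4 against 16.9 and 12.9 CPM; -2.001, SE 0.22, edgeR adjusted p 0.00306). Chek1 lost its call without either Tcm library (adjusted p up to 0.2101). The exceptions on the list included E2f2, which was higher in Tem (41.5 and 45.5 CPM in Tcm, 62.4 and 68.7 CPM in Tem; 0.59, SE 0.10, edgeR adjusted p 0.0165, and 0.109 without Tem replicate 2, lost also without either Tcm library and in DESeq2). The ribonucleotide reductase subunit Rrm2 was at 16.7 and 17.3 CPM in Tcm and 16.2 and 16.4 CPM in Tem (-0.0645, SE 0.16), and the clamp Pcna was near its threshold (-0.58, edgeR adjusted p 0.0416), just under 1.5-fold.

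Promoter sequences are shown for this group because its members moved together. They were read from RefSeq's mouse promoters (GRCm38.p6, 250 bases before to 50 after a start) and searched on both strands for the E2F letters TTTCCCGC, TTTGGCGC, TTTCGCGC and TTTGCCGC; matches to TTTGGCGC and TTTCGCGC can overlap on opposite strands, as in Mcm5. Each window below runs 5′ to 3′ on the gene's strand with the match in capitals.
Cdc6: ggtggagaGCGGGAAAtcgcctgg
Uhrf1: gagtcgggTTTCGCGCgcccaggc
Orc1: ggttagtgGCGCGAAAagttttct
Mcm5: ccaagaacTTTCGCGCcaaaacgt
Mcm3: cttccgtgGCGGGAAAacttggga
Lig1: caaagtgcGCGCGAAAtctgtgtg
The windows lie at chr11:98908005-98908028 for Cdc6, chr17:56304120-56304143 for Uhrf1, chr4:108579419-108579442 for Orc1, chr8:75109348-75109371 for Mcm5, chr1:20820278-20820301 (minus strand) for Mcm3 and chr7:13278844-13278867 for Lig1, with match centres from 181 bases before the start (Uhrf1) to 30 bases after it (Lig1). These distances are from the RefSeq starts, which can lie inside the GENCODE gene positions given in the text, as for Uhrf1. Of the 25 replication genes lower in Tem, 21 had a promoter in the RefSeq set and 11 of these held a match (52.4%). Among the 19 members that were not called, 14 had a promoter and 3 held a match (21.4%). The share was 5.05% among the 7743 of 10072 tested genes with a promoter and 2.26% among all 32851 promoter windows. Of all genes lower in Tem with IL-15, 36 of 199 with a promoter held a match (18.1%), and of those higher in Tem 11 of 244 (4.51%). A match is a description of the letters, and no binding was measured.

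Of 28 tested genes of nucleotide, serine and one-carbon synthesis, 16 were lower and 0 higher (median -0.82). Mthfd1, which feeds formate units into purines, lay at 142 and 126 CPM in Tcm and 68.1 and 58.4 CPM in Tem (-1.08, SE 0.12, edgeR adjusted p 0.00303) and held without any 1 library. Psat1 and Shmt2 of the serine branch (-1.11 and -0.96), Cad and Umps, which make pyrimidines (-0.98 and -0.999), and Gart, Atic and Impdh2, which make purines (-0.88, -0.80 and -0.90), were among the others. Shmt2 and Gart held without any 1 library, and the other 5 lost their call at least without Tcm replicate 1. Leaving out 1 library gave 7 lower genes without Tem replicate 2, 15 without Tem replicate 1, 3 without Tcm replicate 1 and 9 without Tcm replicate 2.

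Of 30 tested genes of cholesterol and fatty acid synthesis, 13 were lower and 0 higher (median -0.55). In the chain from mevalonate to sterol, steps that were lower included Mvk, Mvd, Idi1 (86.6 and 66.7 CPM in Tcm against 28.9 and 28.6 CPM in Tem; -1.42, SE 0.19, edgeR adjusted p 0.00627), Fdps (67.01 and 64.9 against 31.98 and 33.97 CPM; -1.0, SE 0.12, edgeR adjusted p 0.00471), Sqle, Lss, Cyp51 and Hsd17b7. The fatty acid enzymes Acaca and Fasn were lower by -0.85 and -0.83. The count was 5 without Tem replicate 2 (Mvk, Idi1, Fdps, Cyp51 and Acaca), 7 without Tem replicate 1, 0 without Tcm replicate 1 and 4 without Tcm replicate 2. So no call of this list held in all 4 fits: Idi1 and Fdps lost theirs only without Tcm replicate 1 (adjusted p 0.0597 and 0.0544). The letters TCACNCCAC of a sterol response element were searched on both strands of the same windows. They occurred in 0 of the 8 promoters held for these 13 genes and in 1.36% of those of tested genes, which says only that these letters are not in those windows.

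Myc, which drives growth and ribosome production, was at 375 and 431 CPM in Tcm and 220.2 and 212 CPM in Tem (-0.90, SE 0.20, edgeR adjusted p 0.0411), and lost its call without any 1 library (adjusted p up to 0.191). Of 51 tested genes of ribosome biogenesis, 15 were lower and 0 higher (median -0.56), with Rrp12, Grwd1, Nop2 and Mybbp1a lower by -0.88, -0.87, -0.82 and -0.81. This count moved most with the libraries: 1 without Tem replicate 2 (Grwd1), 24 without Tem replicate 1, 1 without Tcm replicate 1 and 2 without Tcm replicate 2. Of 28 genes of glycolysis and the pentose phosphate path, Tpi1, Slc16a1, Tkt and Eno1 were lower and 0 higher (1 without Tem replicate 2, Tpi1; 5 without Tem replicate 1, 0 and 1 without the Tcm libraries). Of 12 amino acid transporters, 2 were lower, Slc7a5 (144 and 148 against 86.4 and 69.7 CPM; -0.90, SE 0.15) and Slc7a1 (-0.63), both lost without either Tcm library or Tem replicate 2 (adjusted p up to 0.08896 and 0.0877). Alpl, alkaline phosphatase, was the gene outside these pathways among the largest lower folds (77.8 and 80.96 CPM in Tcm, 23.7 and 27.2 CPM in Tem; -1.64, SE 0.15, edgeR adjusted p 0.00175).

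Of 33 tested genes of mitosis, 4 were higher in Tem (Mki67, Prc1, Cenpa and Pttg1) and 0 lower, with a median of 0.50. Mki67, the marker of cycling cells, lay at 41.4 and 40.1 CPM in Tcm and 69.98 and 84.2 CPM in Tem with IL-15 (0.92, SE 0.20, edgeR adjusted p 0.0368). It was at 35.4 and 22.9 against 152 and 128 CPM without cytokine (2.28, edgeR adjusted p 0.00279). Top2a (61.6 and 55.2 against 46.4 and 61.01 CPM; -0.12, SE 0.18) and Ccna2 (15.7 and 15.2 against 17.4 and 17.9 CPM; 0.19, SE 0.20) were not called with IL-15. Without Tem replicate 2 the mitosis median was 0.05, so the WT median with IL-15 rests on that library. The calls of Mki67, Prc1, Cenpa and Pttg1 were lost without Tem replicate 2 or either Tcm library, and that of Cenpa without Tem replicate 1 as well. In other libraries the list's median was 1.31 in WT without cytokine, and 0.50 in AAB and 1.10 in BBA with IL-15. In these, 4, 2 and 0 of its genes were called higher. Of the G1 regulators, Cdk4 was lower (193 and 185 against 119 and 113 CPM; -0.71, SE 0.12, edgeR adjusted p 0.0136) and Rb1 higher (0.59, SE 0.12); both calls ended without either Tcm library or Tem replicate 2 (adjusted p up to 0.1104 and 0.177).

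Other lists showed few or no calls. Of 79 cytosolic ribosomal protein genes 1 was lower (Rps2, -0.66, lost without either Tcm library or Tem replicate 2, adjusted p up to 0.224) at a median of -0.40. Of 76 mitochondrial ribosomal protein, 77 oxidative phosphorylation, 20 aminoacyl-tRNA synthetase and 21 MHC class I genes 0 were called in either direction by edgeR, at medians of -0.25, -0.29, -0.37 and -0.06. At an unadjusted p under 0.05 there were 18, 13, 14 and 6 of them, and DESeq2 called 1, 2, 2 and 0. Values were below 0 for 79 of 79 cytosolic ribosomal, 68 of 76 mitochondrial ribosomal and 76 of 77 oxidative phosphorylation genes. The same held for 20 of 20 synthetase and 11 of 21 MHC class I genes, against 4746 of all 10072 tested. Without Tem replicate 2 the medians were -0.22, -0.17, -0.14, -0.34 and -0.09, in that order. Of 34 interferon-stimulated genes Cmpk2, Mx1 and Isg20 were higher (0.99, 0.99 and 1.43; 0 of the list without Tem replicate 2 or either Tcm library). Of 29 genes of the T cell receptor complex, Trat1, a linker of the receptor, was higher (3.83 and 1.8 CPM in Tcm, 28.6 and 27.6 CPM in Tem; 3.31, SE 0.46, edgeR adjusted p 0.00763, and 0.0628 without Tcm replicate 2). Of 24 immediate early genes, Btg1, which slows division, was higher (417 and 480.2 against 709 and 737 CPM; 0.69, SE 0.12, lost without either Tcm library or Tem replicate 2) and Myc lower.

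**Figure D3:**
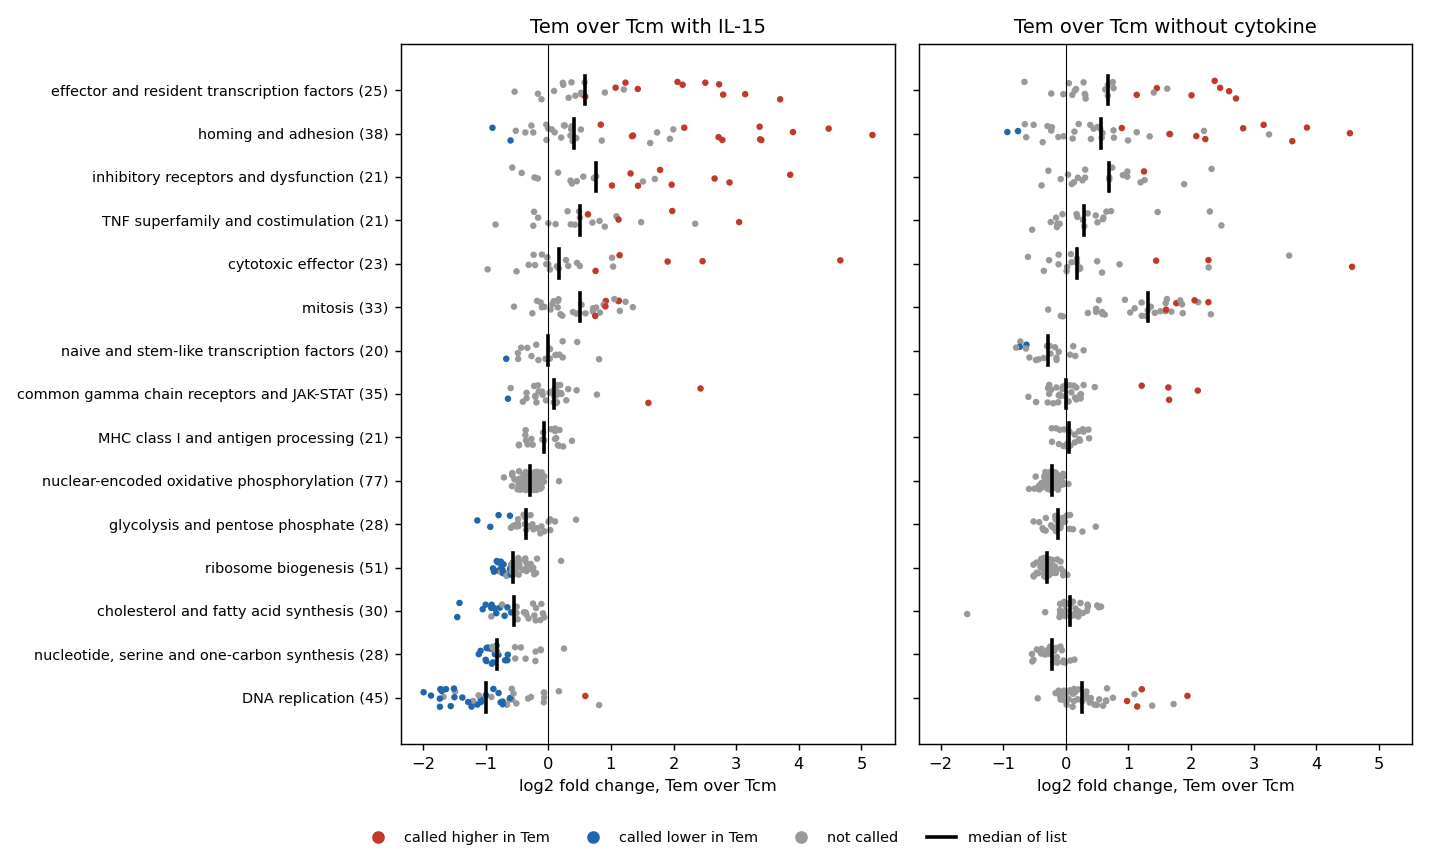
Each point is a tested gene of the list named on the y axis (number tested in brackets), at its log2 fold change of Tem over Tcm with IL-15 (left) and without cytokine (right), and black bars are list medians. With IL-15 the DNA replication median is -0.996 and that of nucleotide, serine and one-carbon synthesis -0.82, whereas without cytokine they are 0.26 and -0.23; effector transcription factors lie to the right in both panels (0.59 and 0.67).

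Without cytokine the same 2 states differed at 181 genes (1.8%), 168 higher in Tem (1.67%) and 13 lower (0.129%). Leaving out 1 of those 4 libraries gave 77 and 57 without Tcm replicate 1 or 2 and 35 and 66 without Tem replicate 1 or 2. Of the 327 genes higher in Tem with IL-15, 125 were called higher without cytokine too. The median of all 327 was 0.89 without cytokine against 1.33 with IL-15. Of the 249 genes lower in Tem with IL-15, 7 were called lower without cytokine and 70 had the opposite sign there. The median of all 249 was -0.18 against -0.80. Both sets were chosen by their values with IL-15, so medians nearer 0 without cytokine are expected from that choice alone. The difference between the 2 contrasts, tested as an interaction of state and IL-15, was called for 23 genes (0.228%), 5 with the value higher with IL-15 (0.0496%) and 18 lower (0.179%). Of the 18, 10 belonged to the DNA replication list. Leaving out 1 library changed both the number of interaction calls and the genes among them. This count rested on single libraries: it was 0 without Tcm IL-15 replicate 1 or either Tem library without cytokine, 3 without Tcm IL-15 replicate 2 or Tcm replicate 2 without cytokine, 15 without Tem IL-15 replicate 2, 19 without Tcm replicate 1 without cytokine and 23 without Tem IL-15 replicate 1. Where it was 0 by edgeR, the genes at an unadjusted p under 0.05 numbered 461, 550 and 491.

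In the replication genes the Tcm libraries with IL-15 stood out from the other 6. Mcm5 was at 69.9 and 69.4 CPM in Tcm and 85.7 and 88 CPM in Tem without cytokine, against the 221 and 190.1 and 59.7 and 64.8 CPM given above with IL-15, and its interaction was -2.04 (SE 0.15, edgeR adjusted p 0.00669). Uhrf1 was at 25.4 and 22.5 CPM in Tcm and 48.6 and 45.4 CPM in Tem without cytokine, where Tem was the higher state (0.98, edgeR adjusted p 0.0427), and its interaction was -2.85 (SE 0.26, edgeR adjusted p 0.0122). Dtl, Chaf1a and Cdca7 had interactions of -3.64, -2.77 and -2.56 (edgeR adjusted p 0.0146, 0.0122 and 0.0241). Rrm2 and Top2a, which were not called with IL-15, had been higher in Tem without cytokine (1.94 and 1.76) and had interactions of -2.01 and -1.88 (edgeR adjusted p 0.0209 and 0.03903).

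Gzmb gave the largest interaction. Without cytokine it lay at 4.54 and 2.49 CPM in Tcm and 80.7 and 78.6 CPM in Tem (4.57, edgeR adjusted p 4.51e-04), and with IL-15 at the 27.1 and 20.9 and 35.99 and 32.1 CPM given above. The value in Tcm was thus higher and that in Tem lower with IL-15, and the interaction was -4.06 (SE 0.34, edgeR adjusted p 0.01097). It lost its call without Tcm IL-15 replicate 1 (0.0695) and without Tem replicate 1 or 2 without cytokine (0.0535 and 0.0724). Of the 5 genes in the other direction, Il7r had an interaction of 1.45 (SE 0.16, edgeR adjusted p 0.0209) and Cd101 one of 1.41 (SE 0.17, edgeR adjusted p 0.0241). Pmepa1, a target and inhibitor of TGF-beta signalling, was at 30.8 and 25.9 CPM in Tcm and 24.5 and 25.97 CPM in Tem without cytokine and at 20.8 and 22.98 and 56.6 and 53.3 CPM with IL-15 (interaction 1.49, SE 0.18, edgeR adjusted p 0.0241). Fam101b and Fam46c, at 1.14 and 0.92, were the others; for both, the Tcm libraries with IL-15 were the low ones (85.3 and 96.3 and 50.05 and 49.5 CPM).

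**Figure D4:**
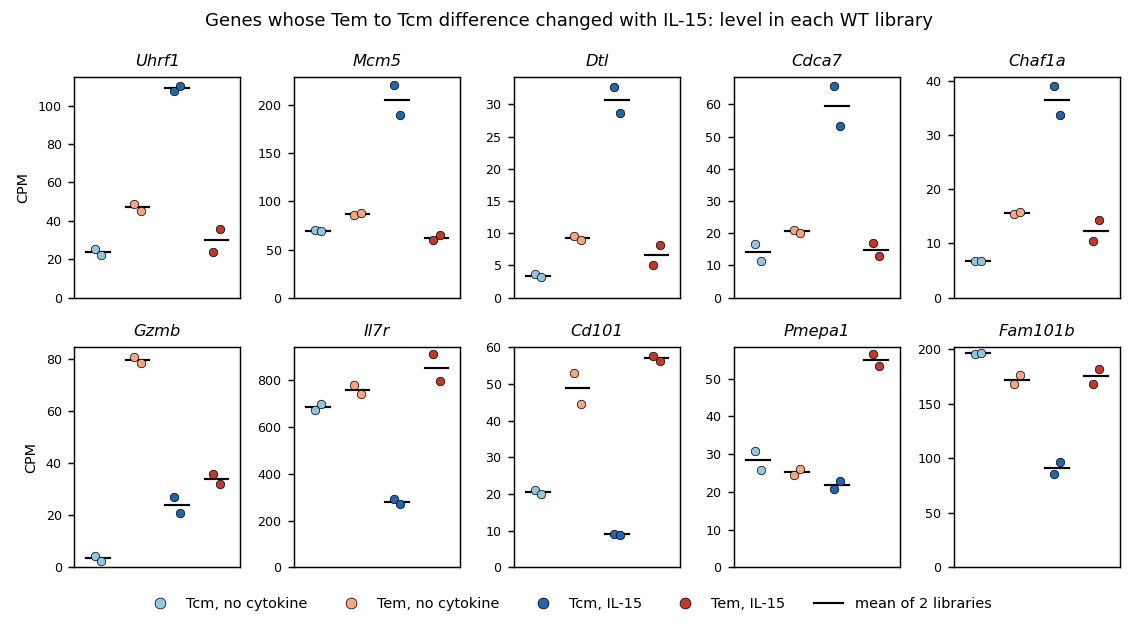
CPM (y axis) of 10 genes whose Tem to Tcm difference changed between the cells without cytokine and those with IL-15, 1 panel a gene, for the 8 WT libraries: points are libraries and bars the mean of 2 libraries. The Tcm libraries with IL-15 are the highest of the 8 for Uhrf1, Mcm5, Dtl, Cdca7 and Chaf1a and the lowest for Il7r, Cd101, Pmepa1 and Fam101b; Gzmb is highest in Tem without cytokine.

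The same comparison in mice with a single Stat5 allele used other libraries. In AAB mice (Stat5a-/- Stat5b+/-), 438 of 10108 genes were called (4.33%), 310 higher in Tem (3.07%) and 128 lower (1.27%; 349 and 80 when scaled by library totals). In BBA mice (Stat5a+/- Stat5b-/-), 65 of 11240 were called (0.578%), 47 higher (0.418%) and 18 lower (0.16%); this count was 208 without Tem replicate 1 and 0 by edgeR without any other (1075, 761 and 1442 at an unadjusted p under 0.05 without Tcm replicate 1, Tcm replicate 2 and Tem replicate 2). A fit that blocks on replicate number called 737 genes in AAB (501 higher, 236 lower), where same-numbered libraries deviated together in all 6 pairs of groups. It called 565 in BBA, where 1 pair of groups did not (Tem with IL-15 and Tcm without cytokine, r -0.125). The other AAB values given here come from the fit without that block, as do those of WT and BBA. Leaving out 1 library changed the number of these AAB calls and the genes among them. The AAB count ranged from 83 to 439 (439 without Tem replicate 1, 83 without Tcm replicate 2, 112 without Tcm replicate 1, 221 without Tem replicate 2). Of the WT genes higher in Tem, all 317 tested in AAB had the same sign there and 185 were called, 58.4% of the 317 and 59.7% of the AAB calls. In BBA 310 of 322 had the same sign (96.3%) and 35 were called, 10.9% of the 322 and 74.5% of the BBA calls. Over all genes tested in both, 77.5% had the same sign in WT and AAB and 67.9% in WT and BBA. Of the WT genes lower in Tem, 240 of 246 had the same sign in AAB (97.6%) and 203 of 243 in BBA (83.5%), with 62 and 3 called (25.2% and 1.23% of those tested, 48.4% and 16.7% of the calls of each genotype).

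The medians of the effector and resident transcription factors were 0.59 in WT, 0.63 in AAB and 0.94 in BBA, with 11, 10 and 4 genes higher. For Cx3cr1 the difference was 3.91 in WT, 2.41 in AAB and 1.55 in BBA, and for Itgae 3.40, 3.45 and 3.05. DNA replication had medians of -0.996 in WT, -0.47 in AAB and 0.01 in BBA, with 25, 6 and 0 genes lower. For Mcm5 the values were -1.72, -1.15 and -0.11. In AAB it lay at 89.9 and 158 CPM in Tcm and 46.1 and 66.7 CPM in Tem, and in BBA at 54.2 and 54.04 and 40.02 and 60.7 CPM. The difference between genotypes was tested in the 12 IL-15 libraries of the 3 genotypes, a fit added after the data were seen. For BBA against WT 1 of 10785 genes was called, Odc1, the first enzyme of polyamine synthesis (difference of 1.51, SE 0.14, edgeR adjusted p 0.0172), with 975 at an unadjusted p under 0.05, and for AAB against WT 0 were called by edgeR, with 278. Replication genes as a group had a median difference of 1.07 between BBA and WT, but the lowest adjusted p among the 45 was 0.203, so a difference between genotypes was not shown for any one of them.

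**Figure D5:**
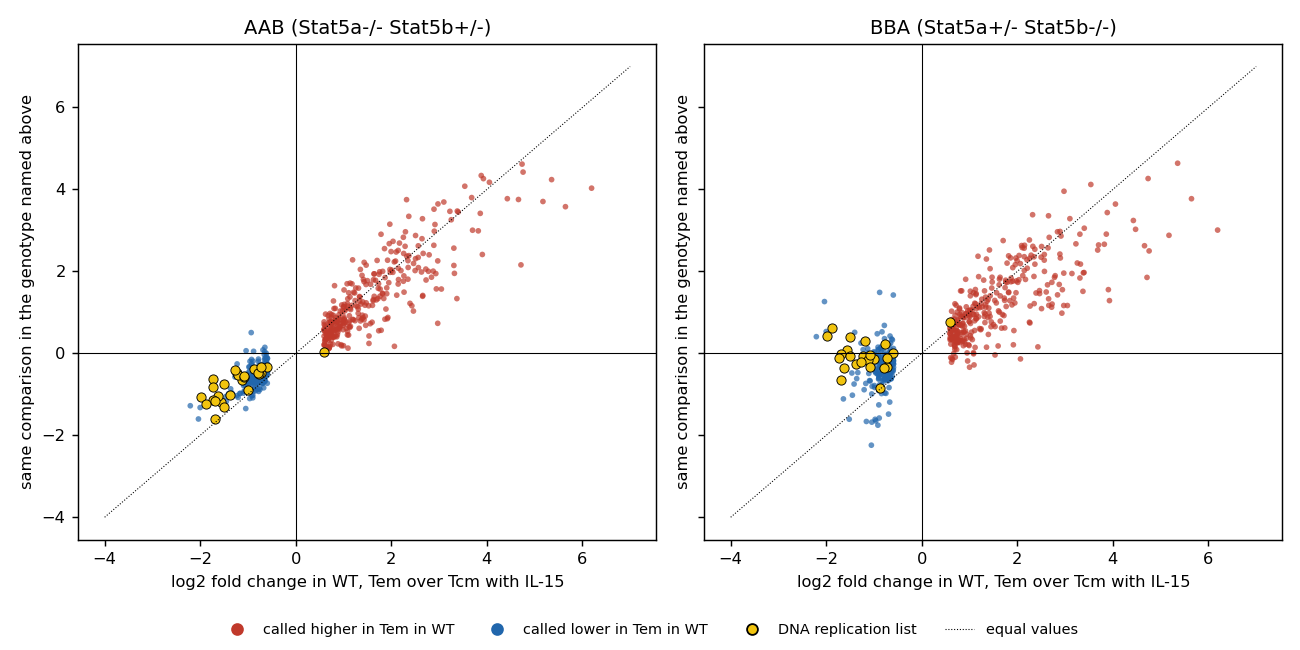
Each point is a gene called in WT with IL-15, at its log2 fold change of Tem over Tcm in WT (x axis) and in AAB (left) or BBA (right) libraries (y axis); red and blue points were higher and lower in WT, yellow points are DNA replication genes and the dotted line marks equal values. Genes higher in WT Tem lie above 0 for 317 of 317 in AAB and 310 of 322 in BBA. The DNA replication list had a median of 0.01 over its 43 members tested in BBA, of which only those called in WT are plotted.

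Markers of other cells were measured beside these results, and their part in them was not tested. The CD8 lineage list summed to 3772 to 4138 CPM in Tcm and 3513 to 4339 CPM in Tem. The CD4 lineage list (4 genes, 2 called) summed to 25.1 to 30.8 CPM in Tcm and 46.6 to 58.0 CPM in Tem. Cd4 itself was at 0.564 and 2.04 and 4.102 and 3.58 CPM and was not tested, and Foxp3 was at 15.4 and 17.2 and 17.9 and 26.6 CPM. The called members were Zbtb7b at 8.57 and 11.2 and 20.7 and 23.1 CPM (1.15, lost without Tcm replicate 1 or Tem replicate 2) and Cd40lg at 0.62 and 0.4201 and 3.93 and 4.799 CPM (3.05, lost without either Tcm library). Of 7 genes of innate-like and type 17 T cells Aqp3 was the 1 tested and was called (28.01 and 35.8 against 50.6 and 52.9 CPM, lost without either Tcm library or Tem replicate 2), while Il17a was at 0 and 0 CPM in Tcm and 0 and 0.152 CPM in Tem. Of the 8 NK cell markers, Klra8 was at 0 in all 4 libraries, Ncr1 was at 1.18 and 2.64 CPM in Tcm and 0.837 and 1.52 CPM in Tem, and Gzma was the called member. The 11 B cell genes in the table, 0 of them called by edgeR, by DESeq2 or at an unadjusted p under 0.05, summed to 288.5 and 626.7 CPM in the Tcm libraries and 126.7 and 416.5 CPM in the Tem libraries, differing more between replicates than between states. In Tem replicate 2 the neutrophil list stood at 115.5 CPM, against 24.8 to 31.8 CPM in the other 3, with Cxcr2 at 77.7 CPM against 12.8 to 14.5. The same held for the dendritic cell list (49.8 CPM against 12.6 to 12.96 CPM) and the monocyte list (34.4 CPM against 8.1 to 12.7 CPM). With all 4 libraries edgeR called 0 genes of those 3 lists, while the neutrophil and dendritic cell lists had 1 gene each at an unadjusted p under 0.05 and 1 each called by DESeq2.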

How the data were processed

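RNA-seq gene counts were deposited by the authors as whole-number counts per gene symbol, 48 CD8+ libraries in 1 table with 24309 symbols and no coordinates. Per the study's methods, poly(A)+ libraries were read as single ends, aligned with tophat2 to mm10 and counted with htseq-count, whereas the submitters' processing notes name mm9. The annotation and the strand setting are not given in the sources used here, so genes that overlap another gene, and those with close copies (Rps2, Bcl2a1b, Klrb1f, Serpinb6a, Ifitm1), are uncertain. A total of 0 columns could not be mapped to a sample, and 67 of the 69 samples had a group in the labels. Genome positions in the text are those of GENCODE vM21 on GRCm38.

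For WT, Tcm and Tem with IL-15 and without cytokine (8 libraries) were fitted together in edgeR 4.0.16 (R 4.3.3) with TMM scaling and the quasi-likelihood F-test, so the 4 groups share 1 estimate of spread. AAB and BBA were fitted in the same way on their own 8 libraries. Genes were kept by the Jaccard filter of the methods, computed here over 100 thresholds from 1 to 200 with a loess span of 0.3, which gave a threshold of 114 normalised counts in at least 1 WT library. Calls needed more than 1.5-fold and a Benjamini-Hochberg adjusted p under 0.05. CPM are counts over the TMM-scaled total of tested genes. SE is the size of the log2 value over the root of F. The scripts were tested on simulated counts of 10072 genes of which 200 were changed: the IL-15 comparison recovered 64% of genes changed 2-fold and 85% of those changed 4-fold with 11 false calls, and the interaction 26% and 80% with 6 false calls. Precision rests on 2 libraries a group, and counting intervals cover counting error only. Replicates differed by more than sampling noise (a chi-square test of their counts gave 15.2 per degree of freedom in Tcm and 25.7 in Tem with IL-15). In AAB, same-numbered libraries of all 6 pairs of groups deviated together (r 0.121 to 0.697).

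The comparison, the gene lists and the named genes were chosen with earlier results of these data known. Genes were named by this rule: the 12 largest folds in each direction with a mean of at least 50 normalised counts and no overlap, up to 4 called members a list with the largest change, fixed genes of memory and IL-15 biology, and up to 5 interaction genes a direction. Other called list members are given by value. The alternatives were other filters, scalings, tools, thresholds, sample sets, a replicate block and leaving out each library. The fit of genotype differences was added after the data were seen. Naive cells, IL-7 cultures and CD4+ T cells were not used here. Some members of the lists are not reported here by name.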

Additional observations from a re-analysis of the deposited data

Results flagged for a closer look

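The difference between Tem and Tcm changed between the cells without cytokine and those with IL-15 for 23 genes, by an interaction term in edgeR over the 8 WT libraries. On the log2 scale the interaction was -4.0648 for Gzmb, -3.6408 for Dtl, -2.8485 for Uhrf1, -2.7697 for Chaf1a and -2.556 for Cdca7, and 1.491 for Pmepa1, 1.4508 for Il7r, 1.4076 for Cd101, 1.1382 for Fam101b and 0.922 for Fam46c. For Dtl, Uhrf1, Chaf1a and Cdca7 the 2 Tcm libraries with IL-15 were the highest of the 8, and for Pmepa1, Il7r, Cd101, Fam101b and Fam46c they were the lowest. For Gzmb the Tem libraries without cytokine (80.7 and 78.6 CPM) were the highest and the Tcm libraries without cytokine (4.54 and 2.49 CPM) the lowest. Whether the change came from IL-15 or from culture was not tested. The count was 0 without Tcm IL-15 replicate 1 or either Tem library without cytokine, where the genes at an unadjusted p under 0.05 in edgeR numbered 461, 550 and 491.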

How the results depend on the processing

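With IL-15 in WT the 576 calls became 635 with edgeR's own filter, 584 with DESeq2 size factors, 565 with library totals, 847 with DESeq2, 596 with the newer quasi-likelihood form, 427 with the 4 libraries alone, 583 with 12 libraries, 396 with 16 and 725 with 48. Without a filter there were 1470, over 2-fold 267 and by Bonferroni 36. Leaving out 1 library gave 103 to 1132. The interaction (23 genes) gave 209 without a filter, 37 with library totals, 141 with DESeq2, 3 by Bonferroni, 4 with all 16 WT libraries and 0 to 23 with 1 library left out. Without cytokine (181) the counts were 424, 367 with DESeq2, 19 by Bonferroni and 35 to 77. AAB (438) gave 668 without a filter, 30 by Bonferroni, 244 over 2-fold and 83 to 439, and BBA (65) gave 711 without a filter, 438 with DESeq2, 43 with the newer form, 1 by Bonferroni and 0 to 208. With the replicate number as a block there were 929 calls with IL-15 (all 576 among them), 198 for the interaction, 437 without cytokine, 737 in AAB and 565 in BBA. WT Tcm and Tem with IL-15 of the same number did not deviate together (r -0.019), while the other 5 pairs of WT groups did (r 0.175 to 0.661, the highest for Tcm and Tem without cytokine). In BBA, Tcm and Tem with IL-15 had r 0.306 and 1 other pair of groups -0.125. Since not every pair of groups exceeded 0.1, the numbers of WT and BBA were not taken to pair the samples, and those of AAB were. The AAB results described above still come from the fit without the block. In every case the cause was not tested. Of 122 named genes the 5 that changed sign were never called: Il15ra (-0.017 with edgeR's own filter, -0.13 unfiltered, -0.0082 with 48 libraries), S1pr1 (-0.071 unfiltered), and, with 1 library left out, Cd8a (-0.28 to 0.081), Cd8b1 (-0.32 to 0.036) and Klf2 (-0.14 to 0.72). Of the 99 named calls, DESeq2 ended 1, library totals 4 and Bonferroni 85. With 2 libraries a group, 64% of simulated 2-fold and 85% of 4-fold changes were recovered in the IL-15 comparison.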

Other observations

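Of 18 tested receptors for other cytokines, Il12rb2, the inducible chain of the interleukin-12 receptor, was higher in Tem (3.89 and 2.76 CPM in Tcm, 10.3 and 10.3 CPM in Tem, a log2 difference of 1.63 with an SE of 0.32), and lost its call without either Tcm library or Tem replicate 2 (edgeR adjusted p up to 0.1697). Of 21 survival and death genes, Bcl2a1b, which encodes a relative of BCL2, was at 4.002 and 3.001 CPM in Tcm and 11.7 and 10.2 CPM in Tem (1.64, SE 0.33), Apaf1, the scaffold of the apoptosome, at 50.95 and 50.8 and 76.5 and 83.4 CPM (0.65, SE 0.10), and Bid, which carries death receptor signals to mitochondria, at 28.97 and 31.9 and 19.7 and 20.6 CPM (-0.59, SE 0.13). These 3 calls were also lost without Tcm replicate 1 or 2 or Tem replicate 2, and that of Bid without Tem replicate 1 as well. Of 25 genes of fatty acid uptake and oxidation, Acot7, a thioesterase that releases fatty acids from coenzyme A, was lower in Tem with IL-15 (-0.60). It had the opposite sign without cytokine (0.59), with an interaction of -1.19 (edgeR adjusted p 0.0269). Among all genes tested 5.72% were called, and 1 of 25 here and 1 of 18 among the cytokine receptors lie near that share. The IL-15 call of Acot7 was lost without either Tcm library or Tem replicate 2 (edgeR adjusted p up to 0.138).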
